A study of Rattus norvegicus with 30 samples.

Results

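Voltage-gated and potassium ion channels were followed across 30 arrays of rat left ventricle RNA. The members were the probe sets with a single gene symbol that starts with Kcn, Cacn, Clcn, or Scn or Hcn and a digit; Kcnj8, Kcnj11 and Cacna1c were left out. The rule gave 125 probe sets for 80 genes, of 7006 probe sets and 4736 genes with 1 symbol on the array. A probe set is a group of short probes whose combined brightness gives 1 signal per array for a transcript. Each of the 6 groups had 5 arrays, described in the labels as biological replicates. The groups were control hearts (CTL), hearts after ischemia (ISCH), hearts with ischemic preconditioning (IPC) or anesthetic preconditioning (APC), and hearts with the trigger alone of either kind (IPC_TRI, APC_TRI). Preconditioning is a mild stimulus given ahead of a damaging lack of blood flow. The labels state that the study set ischemia and reperfusion beside the 2 kinds of preconditioning. The sources used here do not give the anesthetic, the rat strain, sex and age, the times of sampling, or whether IPC and APC hearts went through the damaging ischemia. No group carries a named allele or transgene.

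The heartbeat rests on ion channels that open in sequence. Sodium channels raise the membrane voltage, calcium channels hold it up and start contraction, and several kinds of potassium channel bring it down again. Pore subunits form the path for the ion, and partner subunits set how many channels reach the membrane and how fast they open and close. Background and inward-rectifying potassium channels fix the resting voltage, and they have a long history in research on ischemia because potassium leaves the cell when blood flow stops. Channel transcripts are scarce beside those of contractile proteins, so many of them lie near the detection limit of an array.

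Most of the members were near background. Here near background means that the probe set fell into the lowest 40% of the array by its mean signal, which was left out of the tests. That share left 47 member probe sets of 37 genes for testing. It was 37.6% of the members, against 60% of all probe sets. The other 78 probe sets were near background, and for 43 genes every probe set was. A further 9 genes had some probe sets tested and others near background. They were Cacna1a, Cacnb2, Kcna4, Kcnh8, Kcnj1, Kcnj3, Kcnq3, Scn3a and Scn4a. A second mark came from genes of other organs, such as liver, pancreas or eye, of which 45 of 52 listed were on the array, with 79 probe sets. Their mean log2 signal had a median of 5.82 and a 90th percentile of 7.99. Of the 47 tested members, 31 lay at or below that 90th percentile and 16, of 15 genes, lay above it. Levels of different probe sets are not comparable with each other, so these marks describe the array and do not rank the channels.

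**Figure D1:**
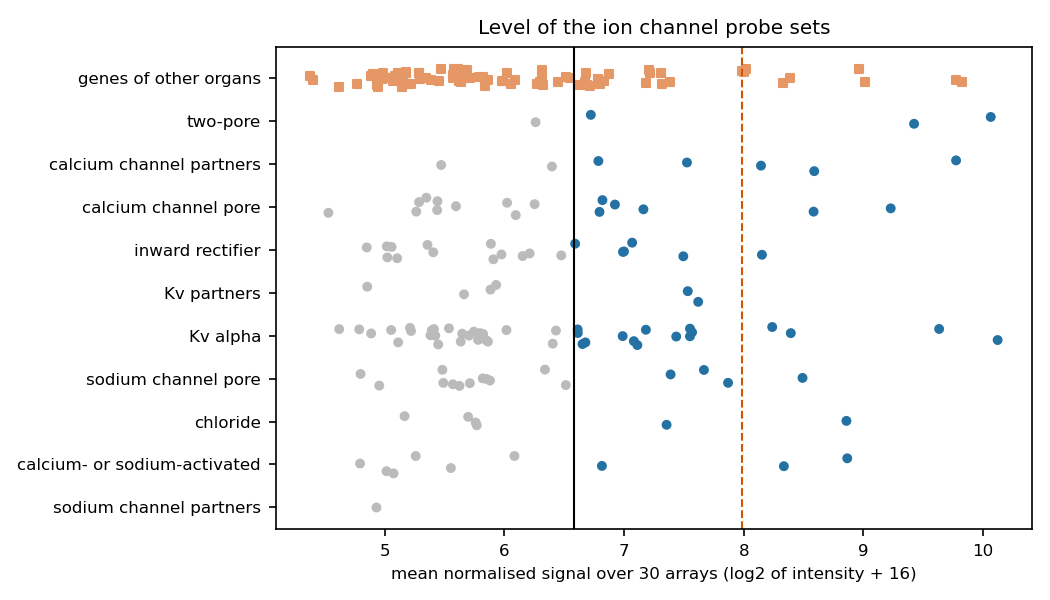
Mean signal of each ion channel probe set over the 30 arrays, as normalised log2 of intensity plus 16, by channel class. Grey points are near background, blue points were tested, and orange squares are probe sets of genes of other organs; the black line is the 40% limit at 6.58 and the dashed line the other-organ 90th percentile at 7.99, with 16 member probe sets to its right.

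Among the pore subunits of voltage-gated potassium channels, 16 of 41 probe sets were tested, and 14 of 27 genes had none. The tested genes were Kcna4, Kcna5, Kcnc4, Kcnd2, Kcnh2, Kcnh3, Kcnh4, Kcnh5, Kcnh7, Kcnh8, Kcnq1, Kcnq3 and Kcns3. Those near background throughout were Kcna1, Kcna2, Kcna3, Kcna6, Kcnb2, Kcnc1, Kcnc2, Kcnd3, Kcnf1, Kcng1, Kcnh1, Kcnh6, Kcns1 and Kcnv1. Of the partner subunits of these channels, Kcnab2 was tested with 2 probe sets, while Kcnab1, Kcnab3 and Kcne1, the partner of the slow delayed rectifier, were near background. Kcnj2, the pore subunit best known for the resting potassium current of ventricular myocytes, was near background with its 1 probe set. Also near background were Kcnj4, Kcnj6, Kcnj9, Kcnj10, Kcnj13, Kcnj14 and Kcnj16, so that 6 of 19 inward rectifier probe sets were tested, of Kcnj1, Kcnj3, Kcnj5, Kcnj12 and Kcnj15. The two-pore class, which carries background potassium current, had Kcnk1 and Kcnk3 tested and Kcnk5 near background. Of the channels opened by internal calcium or sodium, Kcnmb1 and Kcnn1 were tested and Kcnma1, Kcnn3 and Kcnt1 were not.

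Among calcium channel pores, Cacna1a, Cacna1b, Cacna1e and Cacna1g were tested, and Cacna1d, Cacna1h and Cacna1s were near background. The calcium channel partners were the class with the largest tested share apart from the two-pore class, 5 of 7 probe sets: Cacna2d1, Cacnb1, Cacnb2, Cacnb3 and Cacng1, with Cacnb4 near background. Sodium channel pores had 4 of 16 probe sets tested, of Scn3a, Scn4a and Scn7a. The genes Scn1a, Scn2a, Scn8a, Scn9a, Scn10a and Scn11a were near background, as was the sodium channel partner Scn2b. Clcn3 and Clcn4 of the chloride class were tested and Clcn1, Clcn5 and Clcn7 were not, and the rule found 0 probe sets of the pacemaker (Hcn) family. The members just outside the 40% limit of 6.58 were Kcnj10 at 6.47 and Scn8a at 6.51, and those just inside were Kcnj12 at 6.59 and Kcnh7 at 6.61, in mean log2 signal. Of the tested members, 4 passed the limit only through their highest group, since the mean of their other 5 groups lay below 6.58: Kcnh7 (7.15 in APC_TRI, 6.50 in the others), Kcnh5 (6.87 in CTL, 6.56), Kcna5 (7.11 in ISCH, 6.56) and Kcnj12 (7.21 in IPC, 6.47). Their differences between groups are given as values without a test, though the counts of calls below can include them.

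Few members changed. Each tested probe set was compared between groups with limma on the normalised log2 scale, in 11 contrasts between groups, 1 test of the difference between the 2 kinds of preconditioning in full protocol minus trigger, and 1 F test of any difference among the 6 groups. Calls were made at a limma adjusted p under 0.05 (Benjamini-Hochberg over all 5244 probe sets). In ISCH minus CTL 1 member of 47 was called, beside 8.77% of all probe sets. In IPC_TRI minus CTL it was 3 members beside 16.6%, and in IPC minus IPC_TRI it was 4 members beside 23.4%. The F test called 4 members beside 31.6%, and 1 of the 4 was Kcnh7, which had passed the limit through its high group. In all, 8 probe sets of 6 genes were called anywhere, Kcnh7 included. In each of these comparisons the member share (2.13%, 6.38%, 8.51% and 8.51%) lay below the share of all probe sets.

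In the other 9 comparisons limma called 0 members. The shares of all probe sets called there were 3.89% in IPC minus CTL, 3.66% in APC minus CTL, 8.64% in APC_TRI minus CTL and 17.7% in APC minus APC_TRI. They were 0.172% in IPC minus ISCH, 0.267% in APC minus ISCH, 0% in IPC minus APC, 0.439% in IPC_TRI minus APC_TRI and 0.0953% in the test of the 2 kinds of preconditioning. At an unadjusted p under 0.05, these comparisons held 2, 1, 3, 6, 3, 3, 0, 6 and 1 members in the order just given, beside 11.3%, 10.7%, 25.6%, 32.2%, 10.8%, 12.3%, 2.61%, 14.7% and 8.5% of all probe sets. The median standard error (SE) of a member's change was 0.30 on the log2 scale, against 0.25 for all probe sets. The median 95% interval of a member reached 0.62 to either side of its change, and the called changes ran from 0.68 to 0.97 in size.

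The median change of the members was described beside that of all probe sets, without a test. In ISCH minus CTL it was 0.01 (all probe sets -0.01), with 26 of 47 above 0 (55.3%, against 48.8% of all). The median was -0.02 in IPC minus CTL (all 0.01), 0.01 in APC minus CTL (all 0.02) and -0.06 in IPC_TRI minus CTL (all -0.05). In APC_TRI minus CTL it was 0.12 (all -0.01), with 30 of 47 members above 0 (63.8%, against 49.4%). In IPC minus APC it was -0.06 (all -0.01), with 17 of 47 above 0 (36.2%, against 48.6%). The contrasts against CTL share the same 5 CTL arrays.

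**Figure D2:**
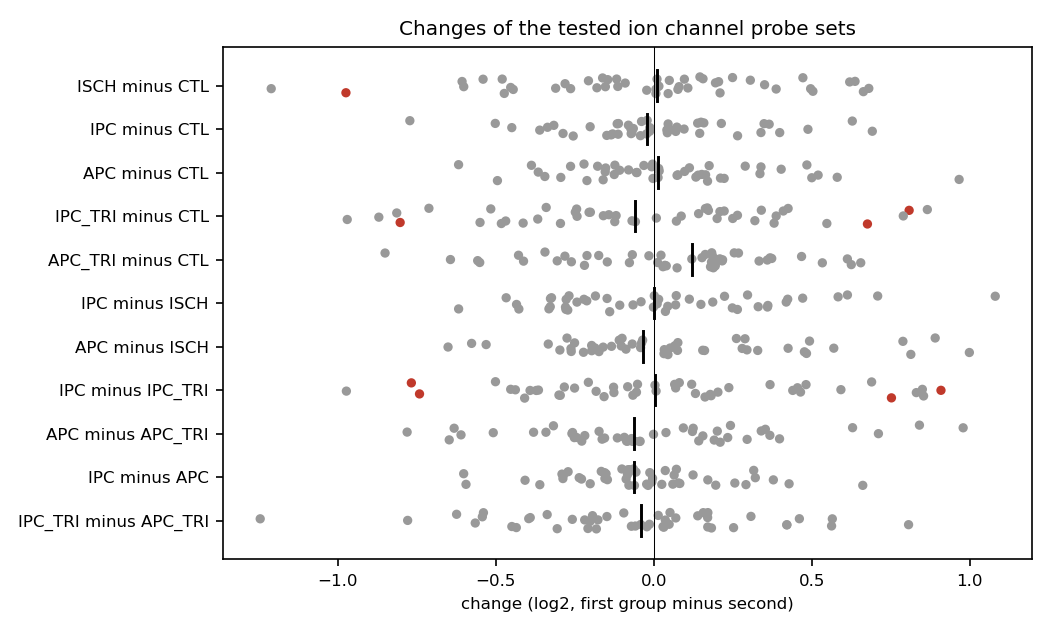
Change of each of the 47 tested ion channel probe sets in the 11 contrasts between groups, on the log2 scale, first group minus second. Points are probe sets, red points were called (8 in 3 contrasts), and the black bar is the members' median, which lies between -0.06 and 0.12.

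The two-pore channel gene Kcnk3 gave 3 of the 8 calls in contrasts. Kcnk3 encodes TASK-1, an acid-sensitive background potassium channel that volatile anesthetics open. It lies on chromosome 6 from 31483129 to 31519061 (GRCr8, RefSeq), and 2 of its probe sets were tested. In probe set rc_AA925138_s_at the CTL arrays had deposited signals of 856.6, 881.1, 978.9, 796.7 and 791.5. The ISCH arrays had 536.5, 708.9, 169.2, 477.6 and 419.4. All 5 ISCH arrays were below all 5 CTL arrays, with means of 462.3 ± 196.4 and 861.0 ± 76.3 (SD, n = 5). The gene's signal there fell by 0.97 ± 0.29 (SE) on the log2 scale (limma adjusted p = 0.027).

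That call rested on single arrays. Without ISCH 3, the array at 169.2, the change was -0.66 (adjusted p = 0.14), and the call also ended without CTL 1 (adjusted p = 0.051), CTL 2 (0.057), CTL 3 (0.068) or ISCH 5 (0.053). The array's spike control probe sets (BioB, BioC, BioDn and CreX) averaged 12.02 ± 0.61 in ISCH and 10.75 ± 0.69 in CTL on the log2 scale (SD, n = 5). With that average as a covariate the change was -0.89 with an adjusted p of 0.26, and with only the 2 groups in the fit the adjusted p was 0.052. Its part in the result was not tested beyond that fit.

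The same probe set was higher in both preconditioned groups than in ISCH without a call. The IPC arrays had signals of 851.0, 752.2, 652.6, 772.4 and 340.0, and the APC arrays 621.2, 818.5, 787.7, 696.8 and 802.0. The lowest IPC array, 340.0, lay within the ISCH range and the other 4 lay within or above it. The difference from ISCH was 0.61 ± 0.29 (limma adjusted p = 0.43) for IPC. For APC it was 0.81 ± 0.29 (adjusted p = 0.22), the smallest p of a member in that contrast. With arrays weighted by their quality both passed, at 0.84 (adjusted p = 0.044) for IPC and 0.94 (0.030) for APC.

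The other Kcnk3 probe set, AF031384_at, followed a different course. Its CTL arrays had 821.0, 948.4, 1384.5, 632.7 and 975.1, and its ISCH arrays 1173.3, 890.3, 518.8, 696.6 and 846.7, which overlapped (-0.15 ± 0.23, adjusted p = 0.80). Its IPC_TRI arrays had 1117.3, 1718.1, 1318.9, 1290.3 and 2634.8, a mean of 1616 ± 611 (SD) against 952.3 ± 276.9 in CTL. Of the IPC_TRI arrays 2 were above all CTL arrays and the other 3 were within the CTL range. The gene's signal rose by 0.81 ± 0.23 (limma adjusted p = 0.018).

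The array IPC_TRI 5, at 2634.8, weighed on this rise. Without it the change was 0.60 (adjusted p = 0.073), without CTL 4 it was 0.68 (0.064), and with median centring of each array 0.52 (0.097). The call also ended with only the 2 groups in the fit (0.0955), with array weights (0.73, 0.052) and without IPC_TRI 5 and ISCH 1 together (0.60, 0.052). In the APC_TRI arrays the probe set had 1790.7, 1718.0, 849.9, 1440.3 and 1350.2, and its difference from CTL was 0.63 ± 0.23 (adjusted p = 0.084), which passed with array weights (0.71, 0.0088) and without those 2 arrays (0.63, 0.031). The 2 triggers did not differ by a call in any member.

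In the full protocols AF031384_at lay within the control range. The IPC arrays had 922.2, 1073.0, 829.6, 935.1 and 873.1, all 5 below the lowest IPC_TRI array. IPC minus IPC_TRI fell by 0.77 ± 0.23 on the log2 scale (limma adjusted p = 0.017), and this contrast shares the IPC_TRI arrays with the one against CTL. Without IPC_TRI 5 it was -0.56 (adjusted p = 0.080). The call also ended with median centring (-0.47, 0.12), only the 2 groups (0.053), array weights (-0.59, 0.089) and without IPC_TRI 5 and ISCH 1 together (-0.56, 0.0585). The APC arrays had 805.5, 1028.0, 1062.8, 783.9 and 910.9, of which 3 were within the range of APC_TRI. APC minus APC_TRI was -0.61 ± 0.23 (adjusted p = 0.067), the smallest p of a member there, and it passed without APC_TRI 3 (-0.79, adjusted p = 0.018), with only the 2 groups (0.030), with array weights (0.020) and without IPC_TRI 5 and ISCH 1 together (0.023).

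**Figure D3:**
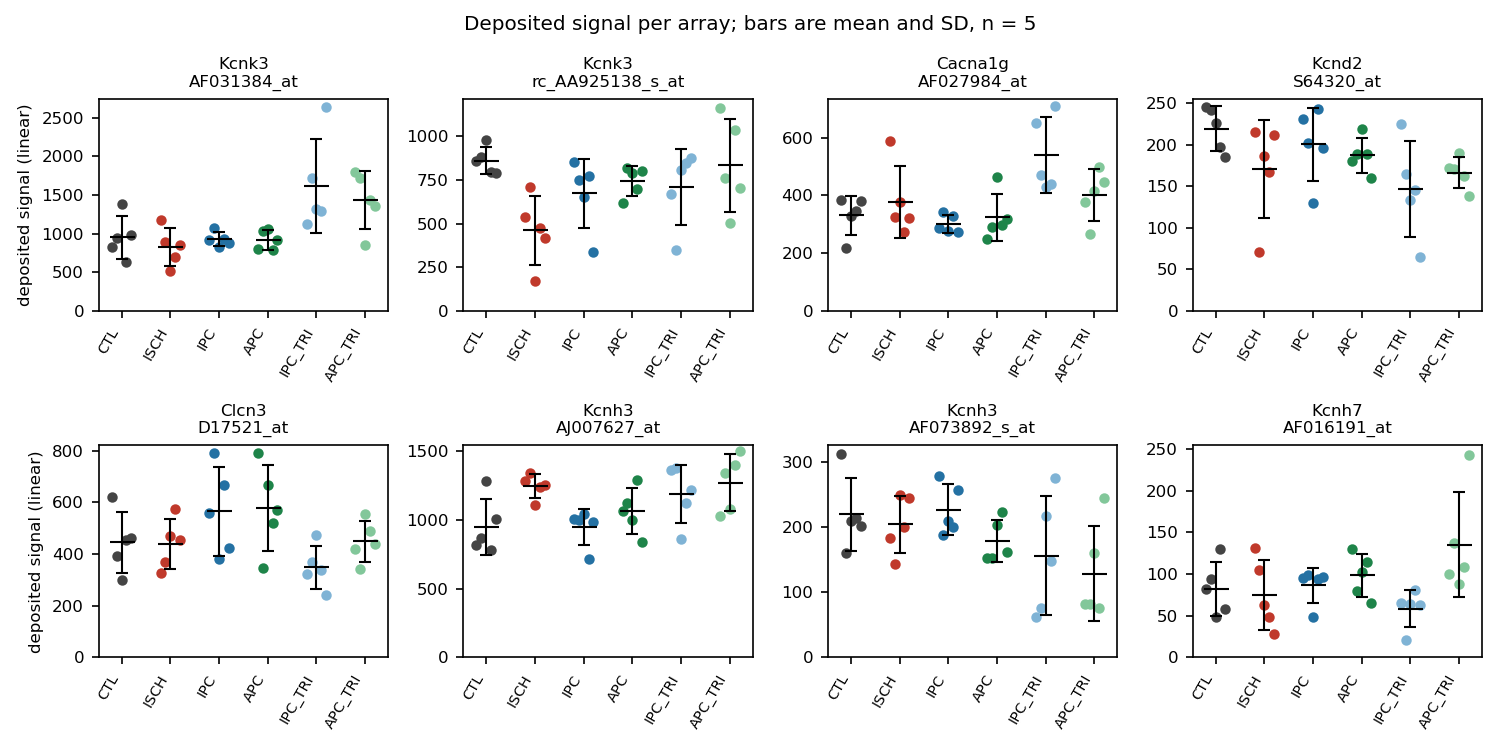
Deposited signal (linear scale) of the 8 member probe sets called in any comparison, in each of the 5 arrays of the 6 groups; bars are mean and SD. The ISCH arrays of Kcnk3 rc_AA925138_s_at (169.2 to 708.9) lie below all CTL arrays, and the IPC_TRI arrays of Cacna1g (427.6 to 709.6) lie above all CTL and all IPC arrays.

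The 2 probe sets of a gene were set against each other within each array, a comparison chosen after the values were seen and made for all 10 member genes with 2 tested probe sets. Of 50 differences from CTL, 6 had a 2-sided exact permutation p under 0.05, and 0 passed after adjustment over the 50 (smallest adjusted p = 0.16). For Kcnk3 the log2 ratio of AF031384_at to rc_AA925138_s_at had a mean of 0.11 ± 0.32 in CTL (SD, n = 5), 0.93 ± 0.49 in ISCH, 1.21 ± 0.75 in IPC_TRI and 0.81 ± 0.26 in APC_TRI. It differed from CTL by 0.83 in ISCH (2-sided exact permutation p = 0.016), by 1.10 in IPC_TRI (p = 0.0079) and by 0.70 in APC_TRI (p = 0.016), each with an adjusted p of 0.16. The unequal changes of the 2 probe sets are given as a description of these arrays, and the adjusted test could not decide on them.

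Among voltage-gated potassium channel pores, Kcnd2 fell in IPC_TRI. Kcnd2 encodes Kv4.2, which carries the fast transient outward current of early repolarisation in rodent ventricle, and lies on chromosome 4 from 50741595 to 51243540 (GRCr8). Probe set S64320_at had 245.6, 241.5, 226.2, 196.8 and 185.4 in CTL and 225.4, 165.2, 133.8, 145.4 and 65.0 in IPC_TRI. The deposited signals overlapped by 1 IPC_TRI array, and the other 4 were below all CTL arrays. The signal fell by 0.80 ± 0.27 on the log2 scale (limma adjusted p = 0.036). The probe set's mean log2 signal was 7.57, below the other-organ 90th percentile.

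The Kcnd2 call ended in 6 of 10 alternatives and in 5 of the 10 fits that left out 1 array. It ended when CTL 1 (adjusted p = 0.071), CTL 2 (0.080), CTL 3 (0.058), CTL 4 (0.060) or IPC_TRI 5 was left out, and in the last case the change was -0.47 (0.15). It ended with no filter (adjusted p = 0.052), with the values as deposited (-0.61, 0.092), with only the 2 groups in the fit (0.17) and with array weights (-0.59, 0.15). It also ended with the spike covariate (-0.75, adjusted p = 0.0705) and without IPC_TRI 5 and ISCH 1 together (-0.47, 0.135). The second probe set, M59980_s_at, named after its values were seen, had 202.8, 122.2, 205.1, 184.6 and 169.2 in CTL and 66.4, 59.0, 174.4, 211.0 and 64.4 in IPC_TRI. Of those IPC_TRI arrays 3 were below and 1 was above all CTL arrays, and the difference was -0.97 ± 0.35 (adjusted p = 0.055). It passed without IPC_TRI 3 (-1.23, adjusted p = 0.014) or IPC_TRI 4 (-1.26, adjusted p = 0.011). Kcnd2 was 1 of 2 genes whose tested probe sets had the same sign in all 5 contrasts with CTL, here below 0 each time.

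Kcnq1 had the largest change of a member in ISCH minus CTL without a call. It encodes the pore of the slow delayed rectifier, lies on chromosome 1 from 207721134 to 208054073 (GRCr8), and was named after its values were seen. Its CTL arrays had 436.8, 450.3, 587.9, 435.8 and 454.9 and its ISCH arrays 48.5, 352.6, 158.9, 392.4 and 250.8. All 5 ISCH arrays were below all CTL arrays, but they spread from 48.5 to 392.4. The difference was -1.21 ± 0.44 (limma adjusted p = 0.087). It was -0.74 without ISCH 1 (adjusted p = 0.29), -0.64 with the spike covariate (0.68), and it passed without ISCH 2 (-1.43, 0.049) or ISCH 4 (-1.45, 0.043). It also passed with the values as deposited (-1.18, adjusted p = 0.0496) and with array weights (-0.87, 0.021). The IPC arrays, at 341.2, 392.2, 339.3, 391.0 and 172.5, were also all below the CTL arrays, with a difference of -0.50 ± 0.44 (adjusted p = 0.79).

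Kcnh3 encodes a channel of the ether-a-go-go family known mainly from brain, and its 2 tested probe sets had differences from CTL of opposite sign in both trigger groups (-0.81 and 0.41 in IPC_TRI, -0.85 and 0.47 in APC_TRI; none called). AF073892_s_at had 278.6, 187.9, 208.6, 199.3 and 256.2 in IPC and 62.0, 75.5, 216.5, 148.4 and 275.1 in IPC_TRI. The IPC_TRI arrays ran from below to near the top of the IPC range. The difference IPC minus IPC_TRI was 0.91 ± 0.32 (limma adjusted p = 0.038). The call ended without IPC 1 (adjusted p = 0.087), IPC 3 (0.060), IPC 4 (0.057), IPC 5 (0.066), IPC_TRI 1 (0.60, 0.15) or IPC_TRI 2 (0.74, 0.10). It also ended in 5 of 10 alternatives: no filter (0.055), values as deposited (0.66, 0.11), only the 2 groups (0.15), array weights (0.67, 0.145) and the spike covariate (0.85, 0.059). The probe set's mean log2 signal, 7.55, was below the other-organ 90th percentile.

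The other Kcnh3 probe set, AJ007627_at, passed the F test (adjusted p = 0.044). That call ended with no filter, values as deposited, median centring, the replicate number as a block and the spike covariate. It also ended without IPC_TRI 5 and ISCH 1 together. With median centring, with the block and without those arrays, AF073892_s_at passed the F test instead. AJ007627_at had 815.1, 867.4, 1285.0, 782.8 and 1008.1 in CTL and 1281.7, 1345.5, 1107.3, 1237.7 and 1258.8 in ISCH. In APC_TRI it had 1028.0, 1343.7, 1082.0, 1404.7 and 1504.5, and in IPC 1004.4, 1001.8, 1045.2, 718.4 and 986.5. The IPC_TRI arrays had 1368.1, 1380.2, 861.4, 1126.8 and 1222.0, and the APC arrays 1063.4, 1127.7, 1002.8, 1294.1 and 838.8. All 5 IPC arrays were below all 5 ISCH arrays, and CTL overlapped with both ISCH and APC_TRI through the array at 1285.0. The difference from CTL was 0.47 ± 0.16 in ISCH (adjusted p = 0.064) and 0.47 ± 0.16 in APC_TRI (adjusted p = 0.063), where it passed without CTL 3 (0.59, 0.023) or APC_TRI 1 (0.55, 0.042). With array weights both passed (0.51 and 0.52, each with an adjusted p of 0.013). IPC minus ISCH was -0.43 ± 0.16 (adjusted p = 0.28). These were the smallest p of a member in APC_TRI minus CTL and in IPC minus ISCH.

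Within arrays the log2 ratio of AJ007627_at to AF073892_s_at had a mean of 1.98 ± 0.48 in CTL (SD, n = 5) and 3.30 ± 0.66 in APC_TRI. The difference of 1.32 had a 2-sided exact permutation p of 0.0079 (adjusted p = 0.16 over the same 50 tests). In IPC_TRI the difference was 1.22 (exact permutation p = 0.079, adjusted 0.44) and in ISCH 0.62 (p = 0.071, adjusted 0.44). These differences did not pass the adjustment, which with 5 arrays per group could hardly be passed. Both lie in the gene on chromosome 7 from 132244492 to 132262725 (GRCr8) as the probe annotation assigns them.

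Kcnh7, another brain member of that family (chromosome 3, 67737900 to 68230950), was the called member that had passed the 40% limit through APC_TRI, so only its values are given. Its IPC_TRI arrays had 64.9, 20.8, 63.7, 80.4 and 63.0 and its APC_TRI arrays 100.2, 137.4, 87.6, 108.3 and 243.2, which did not overlap. The CTL arrays had 82.2, 93.9, 48.1, 130.1 and 58.3, and the ISCH arrays 131.5, 104.6, 62.7, 48.2 and 28.1. The IPC arrays had 94.7, 98.3, 48.8, 94.6 and 96.1, and the APC arrays 129.7, 79.1, 102.7, 115.0 and 65.1. These 4 groups overlapped with each other and with APC_TRI.

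Kcna4 encodes Kv1.4, which carries the slow transient outward current, and had the smallest p of a member in APC minus CTL. Its CTL arrays had 155.5, 163.0, 30.1, 62.8 and 141.7 and its APC arrays 288.0, 154.0, 237.1, 195.9 and 156.1. Of the APC arrays 3 were above all CTL arrays, and the CTL values spread widely. The difference was 0.97 ± 0.31 (limma adjusted p = 0.093), and it passed without CTL 2 (1.15, adjusted p = 0.035) and with array weights (0.81, 0.048). In IPC the arrays had 88.0, 125.4, 120.3, 106.8 and 206.4, and IPC minus APC was -0.60 ± 0.31, with an adjusted p of 1.

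Kcnh2 encodes the pore of the rapid delayed rectifier and had tight values in its probe set U75210_s_at, with no call. Its group means were 804.7 ± 130.4 in CTL, 798.4 ± 130.6 in ISCH, 710.0 ± 68.9 in IPC, 747.2 ± 62.8 in APC, 820.9 ± 145.1 in IPC_TRI and 816.7 ± 99.7 in APC_TRI (SD, n = 5). The change in ISCH minus CTL was 0.05, with a 95% interval from -0.24 to 0.34. Among the partners of these channels, Kcnab2 (X76724_at) had the highest mean signal of its class, the rule by which 1 probe set per class was chosen for display. That rule does not rank the genes. Its arrays had 187.4, 172.4, 255.6, 29.9 and 176.1 in CTL and 329.7, 381.0, 203.6, 245.5 and 264.3 in IPC_TRI. Of the IPC_TRI arrays 3 were above all CTL arrays, with a difference of 0.79 ± 0.37 (adjusted p = 0.14).

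Among the inward rectifiers 0 of 6 tested probe sets were called. Kcnj5, a subunit of the acetylcholine-activated potassium channel that is best known from the atrium, had the smallest p in IPC minus CTL. Its CTL arrays had 94.0, 48.7, 71.7, 116.3 and 78.2 and its IPC arrays 163.8, 216.0, 139.3, 116.6 and 75.4. The difference was 0.69 ± 0.31 (limma adjusted p = 0.36), with 4 of the 5 IPC arrays above all CTL arrays. All 5 ISCH arrays, from 134.3 to 156.4, were also above all CTL arrays, and the difference there was 0.62 ± 0.31 (adjusted p = 0.25).

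Kcnj1, a potassium channel best known from the kidney tubule, was shown for the inward rectifiers by the same rule (S78154_at). It had 254.2, 200.9, 98.9, 295.6 and 248.9 in CTL and 417.7, 227.9, 356.0, 370.5 and 400.3 in ISCH. Of the ISCH arrays 4 were above all CTL arrays, with a difference of 0.68 ± 0.30 (adjusted p = 0.17). The second tested Kcnj1 probe set shared its sign in 3 of the 5 contrasts with CTL.

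Among calcium channel pores, Cacna1g rose in IPC_TRI. It encodes Cav3.1, a T-type channel that opens at low voltage and is known from pacemaking tissue, and lies on chromosome 10 from 79851886 to 79919926 (GRCr8). Its CTL arrays had 384.4, 218.4, 327.4, 346.3 and 380.9 and its IPC_TRI arrays 650.1, 470.7, 427.6, 438.9 and 709.6. All 5 IPC_TRI arrays were above all CTL arrays, with means of 539.4 ± 130.9 and 331.5 ± 67.6 (SD, n = 5). The signal rose by 0.68 ± 0.20 (limma adjusted p = 0.020). The call ended without CTL 2 (0.57, adjusted p = 0.066) or IPC_TRI 5 (0.60, 0.055), and with median centring (0.46, 0.082), array weights (0.53, 0.11) and only the 2 groups in the fit (0.077).

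The full protocol had lower Cacna1g signal than its trigger. The IPC arrays had 286.0, 341.2, 275.8, 329.5 and 273.3, all below all IPC_TRI arrays and within the CTL range. IPC minus IPC_TRI fell by 0.74 ± 0.20 on the log2 scale (limma adjusted p = 0.0075). Of the 8 calls in contrasts, it was the only one kept in all 11 alternatives and without each of the 10 arrays in turn, with changes from -0.81 to -0.53 and adjusted p from 0.0054 to 0.043. The ISCH arrays had 587.5, 323.7, 376.5, 272.1 and 323.1, and the APC arrays 250.2, 290.9, 463.7, 296.1 and 318.5. In APC_TRI the arrays had 377.8, 264.8, 416.3, 499.9 and 447.7, with a difference from CTL of 0.26 ± 0.20 (adjusted p = 0.44). IPC_TRI minus APC_TRI was 0.42 ± 0.20 (adjusted p = 0.31), so the 2 triggers were not shown to differ in this gene. The F test gave an adjusted p of 0.031 for Cacna1g and of 0.0058 for Kcnk3 AF031384_at. The F test call of Cacna1g ended with median centring and with array weights.

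The other calcium channel members gave 0 calls. Cacna1a, the pore of the P/Q-type channel known from neurons, had 481.8, 474.5, 535.4, 583.4 and 605.2 in CTL for probe set rc_AI229031_s_at. In IPC_TRI it had 872.6, 425.0, 725.4, 614.9 and 831.5, with 4 arrays above and 1 below all CTL arrays (0.34 ± 0.18, limma adjusted p = 0.19). Cacna2d1, the partner that brings the pore to the membrane, was steadier. Its medians were 818.1 in CTL, 847.9 in ISCH, 874.9 in IPC, 865.0 in APC, 902.6 in IPC_TRI and 894.1 in APC_TRI, and all its contrasts with CTL lay between 0.08 and 0.18. Its 95% intervals there reached from -0.21 to 0.48.

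Of the channels opened by calcium, Kcnmb1, the partner of the large-conductance potassium channel of smooth muscle, had 414.5, 461.9, 532.9, 435.3 and 534.7 in CTL. In APC it had 316.2, 444.2, 281.5, 325.4 and 389.6, with 4 of 5 arrays below all CTL arrays on the deposited scale, and a difference of -0.39 ± 0.22 (limma adjusted p = 0.61). Among sodium channels, Scn7a, a channel-like protein that senses sodium, gave overlapping groups, with 304.5, 269.2, 394.0, 361.6 and 465.2 in CTL and 360.4, 235.7, 351.5, 427.8 and 466.8 in ISCH for S75991_at. Scn2b was near background and not tested. Its deposited signals were 5.7, 3.1, 6.0, 6.7 and 7.5 in CTL and 25.6, 73.8, 33.7, 14.4 and 136.4 in IPC_TRI, so that all IPC_TRI arrays were above all CTL arrays at a very low level.

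Among the chloride class, Clcn3 had a call. It encodes an exchanger of chloride and protons in endosomes and synaptic vesicles, and lies on chromosome 16 from 34138004 to 34210984 (GRCr8). It was the only member with a window at hand in which a full cyclic AMP response element, the site of the CREB family, was found, so its 250 bases before the annotated start are shown. They lie at chr16:34137754-34138003 on the plus strand (RefSeq, GRCr8), 5′ to 3′, with that element in capitals.
Clcn3: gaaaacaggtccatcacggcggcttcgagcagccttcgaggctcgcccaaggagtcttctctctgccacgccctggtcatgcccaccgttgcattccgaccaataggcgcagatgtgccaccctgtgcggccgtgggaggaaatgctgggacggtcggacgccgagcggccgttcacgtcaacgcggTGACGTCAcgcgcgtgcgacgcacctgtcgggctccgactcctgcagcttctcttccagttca

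The element TGACGTCA begins 63 bases before the start, and the window holds it 1 time. Counting either strand, it occurs in 531 of 33469 windows of this length (1.59%) and in 1 of 70 member windows. Windows were at hand for 61 of the 80 member genes. The window has a GC content of 64.4%, against a median of 51.2% over all windows. Of other motifs searched on both strands, the E-box CACGTG was in 3 member windows (Clcn4, Clcn7 and Kcnh4; 5.59% of all windows), TATAAA in 5 (12.9% of all) and the Sp1 motif GGGCGG in 32 (45.7%, against 30.5% of all). These are matches of letters and not shown to be bound.

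Clcn3 signal was 559.5, 793.1, 382.1, 668.6 and 422.1 in IPC and 322.1, 367.5, 474.9, 338.2 and 243.2 in IPC_TRI. Of the IPC arrays 3 were above all IPC_TRI arrays. IPC minus IPC_TRI was 0.75 ± 0.24 (limma adjusted p = 0.022), and the call ended without IPC 2 (0.63, adjusted p = 0.071), IPC 4 (0.68, 0.060) or IPC_TRI 5 (0.57, 0.090). It also ended with only the 2 groups (0.099), array weights (0.56, 0.14) and without IPC_TRI 5 and ISCH 1 together (0.57, 0.075). In CTL the arrays had 620.6, 391.5, 298.6, 454.7 and 460.8, with a mean of 445.2 between those of IPC (565.1) and IPC_TRI (349.2). Neither differed from CTL by a call (0.34 ± 0.24, adjusted p = 0.70, and -0.41 ± 0.24, adjusted p = 0.23).

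The probe sets of 1 gene often gave different signs. Of the 10 member genes with 2 tested probe sets, 2 (Kcnd2 and Cacna1b) had the same sign for both in all 5 contrasts with CTL. Cacna1a, Kcnab2, Kcnh2 and Kcnmb1 shared it in 2 contrasts, Kcnj1 and Scn7a in 3, and Kcnh3 and Kcnk3 in 1. Most of these changes were smaller than their 95% intervals, so a sign alone carries little. Which part of the transcript each probe set reads was not analysed here.

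**Figure D4:**
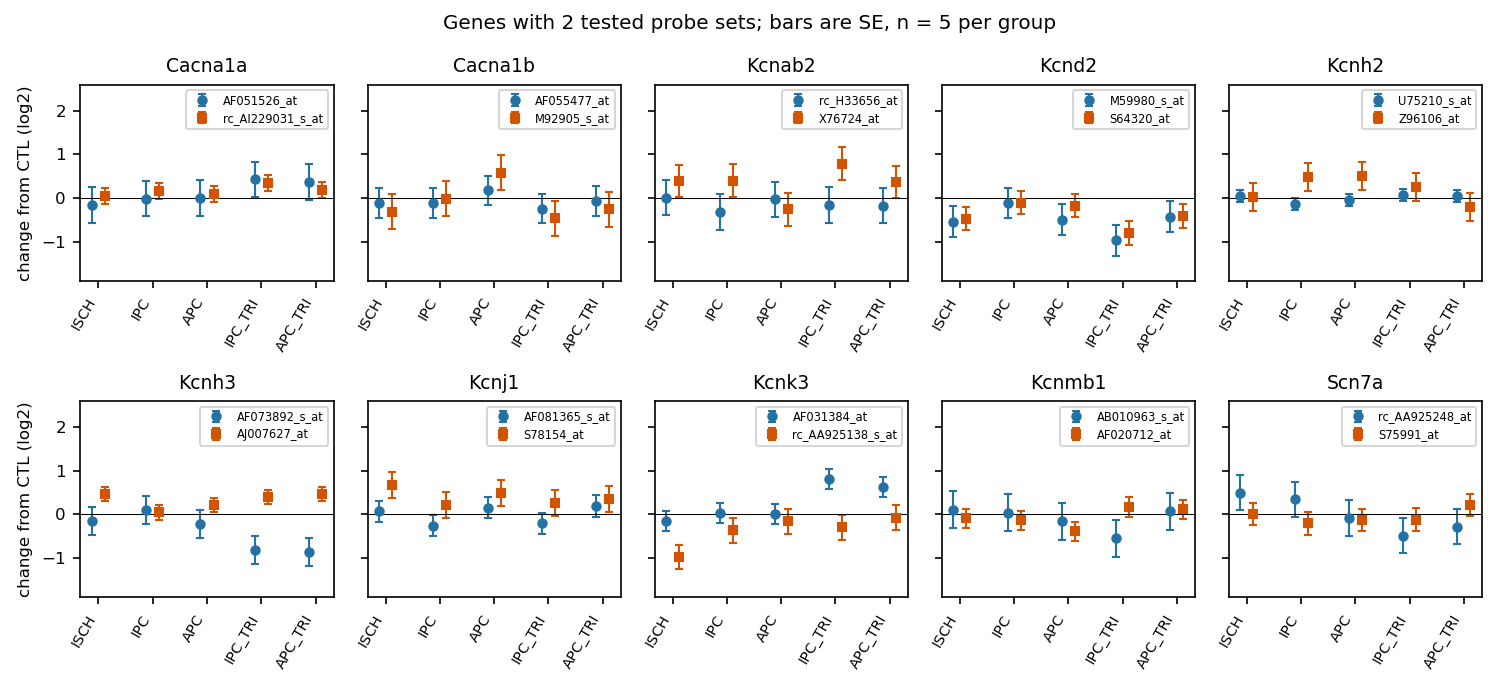
Change from CTL on the log2 scale for the 10 member genes with 2 tested probe sets; points are changes of each probe set in the 5 other groups and bars are the SE (n = 5 arrays per group). In Kcnk3 and Kcnh3 the probe sets part in the trigger groups, with 0.81 and -0.29 for Kcnk3 in IPC_TRI, while in Kcnd2 both lie below 0.

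The IPC_TRI arrays were less alike than those of the other groups. Their mean correlation with each other was 0.898, against 0.944 to 0.967 in the other groups, and IPC_TRI 5 had the lowest mean correlation with its own group, 0.873. The median SD of a member's log2 signal was 0.58 in IPC_TRI and 0.29 to 0.40 elsewhere. IPC_TRI was the highest or the lowest of the 6 group means for 27 of 47 members (57.4%), and for 45.7% of all probe sets. The log2 ratio of beta-actin 3′ to 5′ signal, a measure of RNA quality, ran from -0.99 to 0.05 in IPC_TRI, from -0.70 to -0.015 in APC_TRI and from -0.31 to 0.31 in CTL. It ran from 0.25 to 0.42 in ISCH, from -0.12 to 0.49 in IPC and from -0.28 to 0.37 in APC. The part of these differences in the calls was not tested beyond leaving out arrays and weighting them.

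Markers of cell types were summed per array from the deposited signals, which were not normalised. The sum of 6 smooth muscle and pericyte markers was 15130 to 22720 in IPC_TRI and 14430 to 23170 in APC_TRI, against 12300 to 14700 in CTL, with 0 of 6 called in IPC_TRI minus CTL or APC_TRI minus CTL and 1 lower in ISCH minus CTL. That of 9 fibroblast markers was 74110 to 95300 in ISCH and 45180 to 53770 in CTL, with 5 of 8 tested called higher. It was also above the CTL range in IPC_TRI (58100 to 96760) and APC_TRI (57910 to 65100), with 1 called higher in each. It overlapped CTL in IPC (48270 to 95100) and APC (38110 to 53770). That of 13 neuron and Schwann cell markers was 1501 to 2452 in ISCH and 964.1 to 1399 in CTL, with 1 of 6 tested called higher. It was also above the CTL range in APC (1413 to 1760) and APC_TRI (1503 to 1906). It overlapped CTL in IPC (1237 to 1836) and IPC_TRI (1231 to 2677). That of 8 endothelial markers was 2748 to 4176 in ISCH and 3894 to 4821 in CTL, with 1 called higher and 2 lower, and 1 was called lower in IPC_TRI minus CTL. Of 10 ventricular myocyte markers 9 were on the array and all 9 were tested, with sums of 182100 or more on every array. They summed to 204000 to 331600 in CTL, 270900 to 485100 in ISCH, 276600 to 435700 in IPC_TRI and 268100 to 338200 in APC_TRI. Of the 9, 1 was called lower in ISCH minus CTL, 2 in IPC_TRI minus CTL and 1 in APC_TRI minus CTL, with 0 called higher. The 3 atrial markers summed to 1632 to 2993 in CTL and to 1953 to 12880 in APC_TRI, with 0 of 3 called. In tissue RNA fewer cells of a type and less RNA per cell cannot be told apart, and the part of these markers in the channel results was not tested.

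Other genes of excitation and calcium handling, from a list of 65 of which 42 had a tested probe set, were counted beside the channels. Here each gene was counted once, by its tested probe set with the highest mean signal, whereas the channel counts above are of probe sets. Counted by gene in this way, 0 of 37 channel genes were called in ISCH minus CTL. In IPC_TRI minus CTL and in IPC minus IPC_TRI it was 3 each. In ISCH minus CTL 4 of them fell and 0 rose, beside 8.30% of all 3155 genes called. Ryr2, the calcium release channel of the sarcoplasmic reticulum, fell by 1.09 on the log2 scale (limma adjusted p = 0.036) and Casq2, which stores calcium there, fell by 0.85 (adjusted p = 0.00028). The calcium pump gene Atp2a2 and the kinase subunit Prkar1a also fell. In IPC_TRI minus CTL 5 rose and 7 fell, beside 15.7% of all genes. Pln, the inhibitor of that pump, fell by 0.58 (adjusted p = 0.010), and the G protein gene Gnai2 rose by 1.45 (adjusted p = 2.7e-05).

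APC_TRI minus CTL had 4 that rose and 4 that fell, beside 7.89%. The sodium-calcium exchanger gene Slc8a1 rose by 0.94 (limma adjusted p = 0.0087) and Pln fell by 0.63 (adjusted p = 0.0088). In IPC minus CTL 1 rose, the beta-1 adrenergic receptor gene Adrb1 (1.38, adjusted p = 0.016), beside 3.61% of all genes. In IPC minus IPC_TRI 6 rose and 7 fell (22.9% of all genes), in APC minus APC_TRI 3 and 3 (17.2%), and in IPC_TRI minus APC_TRI 0 and 1 (0.349%). In APC minus CTL, IPC minus ISCH, APC minus ISCH and IPC minus APC limma called 0 of the 42. The shares of all genes called there were 3.3%, 0.095%, 0.127% and 0%, in that order.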

How the data were processed

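Total RNA of rat left ventricle was measured on 30 arrays, 5 for each of 6 groups set by the titles. The deposited values are linear intensity values, 1 per probe set; per the labels the RNA was handled by the array maker's recommended procedures, and the software that made the values is not given in the sources used here. The table holds 8799 probe sets. Here 59 control probe sets were left out, log2(intensity + 16) was quantile normalised, and the lowest 40% by mean were left out, which kept 5244. limma 3.58.1 (R 4.3.3) was fitted with 1 mean per group and a variance trend, and p-values were adjusted by Benjamini-Hochberg. A pseudocount of 16 lowers the log2 change of dim probe sets. Array medians ran from 114.6 to 189.2. The 5 arrays per group limit the precision. Plots were drawn with matplotlib 3.10.9 under Python 3.11.15, from tables made with pandas 2.3.3.

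The members, lists and tests were chosen with earlier results of these data known. Array values over the groups compared are given for members called in any comparison and for the smallest p where none was called. For the probe set with the highest mean signal in each class, arrays of some groups, group means or medians are given. Kcnq1 and the second Kcnd2 probe set were added after their values were seen, and Kcnh2 was described outside these rules. All 80 gene identifiers matched RefSeq (GRCr8) with the same symbol. The fit was tested on simulated data.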

Additional observations from a re-analysis of the deposited data

Results flagged for a closer look

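In 16 of 114 groups of 5 arrays, over the 19 named probe sets, 1 array stood apart from the other 4 by Dixon's test at the 95% level; chance gives about 1 such group in 20. Values are normalised log2 signals. For Kcnk3 rc_AA925138_s_at the arrays were IPC 5 (8.49, nearest other 9.41) and IPC_TRI 2 (8.55, nearest 9.43), both low. For Kcnd2 S64320_at they were ISCH 2 (6.50, nearest 7.51) and IPC_TRI 5 (5.75, nearest 7.30), and for Kcnd2 M59980_s_at APC 3 (6.22), all low; IPC_TRI 5 is 1 of the 5 arrays without which the Kcnd2 call ended. For Kcnq1 the arrays were CTL 3 (9.21, high) and IPC 5 (7.56, low). For Kcnj1 S78154_at they were CTL 3 (6.82) and ISCH 2 (7.99), both low, and for Kcnj5 ISCH 2 (7.39, high). Kcnab2 X76724_at was low in CTL 4 (5.69, nearest 7.59), Kcnh7 in IPC 3 (6.19), Kcnh3 AJ007627_at in IPC 4 (9.52), Scn7a S75991_at in IPC_TRI 2 (7.08) and Cacna1a rc_AI229031_s_at in APC_TRI 3 (8.62). Kcnmb1 AF020712_at was high in ISCH 5 (9.58, nearest 8.75).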

How the results depend on the processing

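The alternatives were run for changes with a call, with the smallest p of a contrast, or named after their values were seen. Over 11 alternatives and with each array of a contrast left out in turn, 0 of these changes reversed sign. They were picked by their p or their values, so a reversal was unlikely and its absence says little. Of the calls in contrasts, only that of Cacna1g in IPC minus IPC_TRI was kept throughout. The count of ion channel probe sets called in ISCH minus CTL (1) was 2 with 60% of probe sets left out or with values as deposited, 3 with array weights, 0 with only the groups of the contrast or the spike covariate, and 0 to 2 when 1 array was left out (0 without CTL 1, CTL 2, ISCH 3 or ISCH 5). In APC minus CTL (0) it was 1 with array weights and 0 to 1 when 1 array was left out (1 without CTL 2). In IPC_TRI minus CTL (3) it was 8 with no filter, 1 with median centring, 0 with only those groups or array weights, and 1 to 6 when 1 array was left out (1 without CTL 4 or IPC_TRI 5, 6 without IPC_TRI 3, 5 without IPC_TRI 4). In APC_TRI minus CTL (0) it was 1 with no filter, 2 without IPC_TRI 5 and ISCH 1 together, 3 with array weights, and 0 to 2 when 1 array was left out (2 without CTL 3, 1 without APC_TRI 1, APC_TRI 3 or APC_TRI 5). In IPC minus ISCH and in APC minus ISCH (0) it was 1 with array weights. In IPC minus IPC_TRI (4) it was 9 with no filter, 1 with only those groups or array weights, 2 without IPC_TRI 5 and ISCH 1, and 2 to 8 when 1 array was left out (2 without IPC 4 or IPC_TRI 5, 8 without IPC_TRI 3, 7 without IPC_TRI 4). In APC minus APC_TRI (0) it was 3 with no filter, 2 with only those groups and 2 without IPC_TRI 5 and ISCH 1. With array weights it was 4, among them Kcnj12, which had passed the limit through its highest group. The count was 0 to 1 when 1 array was left out (1 without APC 3, APC 4 or APC_TRI 3). In IPC_TRI minus APC_TRI (0) it was 0 to 1 when 1 array was left out (1 without IPC_TRI 3 or IPC_TRI 4). Kcnh7, which had passed the limit through APC_TRI, was called in 2 of these fits. The F test count (4) was 8 with no filter, and 2 with values as deposited or the spike covariate. It was 1 to 6 when 1 array was left out (1 without IPC_TRI 1, 2 without APC_TRI 2). Leaving out 60% of probe sets tests 17 members in place of 47, and no filter tests all 125. For the others the cause was not tested. The share of all probe sets called in each of these fits is not given here. The counts therefore do not show whether the members moved apart from the rest of the array.

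Among the members gained with no filter were near-background probe sets such as Scn8a M27223_at (1.36, adjusted p = 0.026) and Scn2b (1.19, adjusted p = 0.011) in IPC_TRI minus CTL. The replicate numbers gave no sign that arrays were paired, though this cannot exclude a pairing. Deviations of same-numbered arrays from their group means had a median correlation of 0.0061 over 75 pairs, 9 of them over 0.1. The highest was 0.207, and the median of the other pairs was -0.0012. With the replicate number as a block, the counts were 1 in ISCH minus CTL, 3 in IPC_TRI minus CTL, 4 in IPC minus IPC_TRI, 3 in the F test and 0 elsewhere.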

Other observations

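Kcna5, the gene of the ultrarapid delayed rectifier, had a deposited signal of 501.7 in ISCH 1 and 71.6 to 103.6 in the other 4 ISCH arrays, against 56.7 to 86.3 in CTL. It passed the 40% limit only through ISCH, so no test is given, and the gene was chosen after its values were seen.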
